A study of Rattus norvegicus with 20 samples.

Results

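The genes described here are the heat shock proteins and J-domain co-chaperones of the rat hippocampus. Members are all gene symbols that begin with Hspa, Hspb, Hsp90, Hsph, Hspd, Hspe, Dnaja, Dnajb or Dnajc, without 5 genes of the endoplasmic reticulum stress response (Hspa5, Hsp90b1, Dnajb9, Dnajb11 and Dnajc3). This rule found 67 of 17168 symbols, 40 of them Dnaj and 27 Hsp symbols. Of these, 58 had a mean of at least 1 RPM (reads scaled to library size with TMM factors, the trimmed mean of M-values) in each table, and 57 reached it in both tables. The mean was taken over all rats of a table, so the filter used no difference between groups.

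The study sequenced mRNA from the hippocampus of 20 rats, all female and aged 4 months, and its 2 tables share no rat. The genotype table held 5 wild-type rats on plain rodent chow (WTNT) and 5 TgF-344AD rats on the same chow (TGNT). TgF-344AD rats carry human APPsw, the Swedish mutant of the amyloid precursor protein, and human PS1-ΔE9, a presenilin that lacks an exon, both driven by the prion promoter, which is active in many cell types. The treatment table held 4 TGNT and 6 TGTR rats, all TgF-344AD, and TGTR rats were fed chow with diazoxide (DZ, a potassium channel opener, at 10 mg/kg/day) and dibenzoylmethane (DIB, at 200 mg/kg/day) from day 52 of life. Both groups of the treatment table carry the transgenes, so no wild-type rat stands beside TGTR rats, and the tables were scaled separately and are never compared in level. The labels name the left hippocampus and the study's methods the right one, so the side is uncertain, and each rat gave a single stranded mRNA library.

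Heat shock proteins are chaperones that keep other proteins folded. An Hsp70 binds unfolded stretches and folds them in cycles of ATP hydrolysis, J-domain proteins bring it clients and start hydrolysis, and Hsp110 proteins release the nucleotide so that the cycle can begin again. Cytosolic Hsp90 completes the folding of kinases and receptors, chaperonins enclose clients in a chamber, and small heat shock proteins hold unfolded proteins. In neurons this network is known for handling aggregation-prone proteins such as tau and amyloid-β, and under stress the heat shock factor HSF1 raises many of its genes through heat shock elements in their promoters. RPM are not divided by transcript length, so levels are compared between rats and never between genes.

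The promoters that hold a heat shock element are shown first, since the element is what HSF1 is known to bind. RefSeq promoter windows of build GRCr8, each from 250 bases before to 50 bases after a transcript start, were matched by symbol for 52 of the 67 members, from a table of 33469 windows of 27457 genes. The 15 members without a window, Hsp90aa1 and Hspa1b among them, could not be searched. A 3-unit element was searched on both strands as GAANNTTCNNGAA or TTCNNGAANNTTC, each of which contains the shorter 2-unit motifs GAANNTTC and TTCNNGAA. It stood in 5 of the 52 members (9.62%), namely Hsph1, Hspa8, Hspd1, Hspe1 and Dnaja1, and in 0.798% of all windows. The 250 bases before the start of 3 of them are given 5′ to 3′ on the gene's strand, with the elements in capitals: Hsph1, plus strand, chr12:10427118-10427367; Hspa8, plus strand, chr8:50080264-50080513; and Hspe1, plus strand, chr9:64084077-64084326.
Hsph1: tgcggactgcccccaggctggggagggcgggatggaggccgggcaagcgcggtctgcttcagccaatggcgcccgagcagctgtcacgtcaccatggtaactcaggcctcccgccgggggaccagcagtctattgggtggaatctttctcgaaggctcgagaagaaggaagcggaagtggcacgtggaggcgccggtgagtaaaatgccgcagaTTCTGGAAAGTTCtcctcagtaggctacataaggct
Hspa8: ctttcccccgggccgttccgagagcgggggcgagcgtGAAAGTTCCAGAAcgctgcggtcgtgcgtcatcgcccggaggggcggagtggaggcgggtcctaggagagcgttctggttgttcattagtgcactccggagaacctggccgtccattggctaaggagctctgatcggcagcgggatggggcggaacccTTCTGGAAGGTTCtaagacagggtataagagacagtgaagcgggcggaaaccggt
Hspe1: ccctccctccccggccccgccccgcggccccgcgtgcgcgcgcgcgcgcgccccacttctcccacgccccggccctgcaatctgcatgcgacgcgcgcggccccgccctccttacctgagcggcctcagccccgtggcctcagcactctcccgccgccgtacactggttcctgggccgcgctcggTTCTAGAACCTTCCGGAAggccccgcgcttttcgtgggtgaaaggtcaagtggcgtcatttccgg

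Counted from the transcript start, the Hsph1 element runs from -36 to -24, and Hspa8 holds one element from -213 to -201 and another from -55 to -43. In Hspe1 the capitals are 2 overlapping matches that run together over 18 bases, from -65 to -48. Hspd1 is transcribed from the minus strand of the same stretch, its window shares 211 of 300 bases with that of Hspe1, and its element, from -242 to -225, is the Hspe1 element read from the other strand. The single match in Dnaja1, GAACTTTCCAGAA, lies after the start, from 10 to 22. The 2-unit motifs were more common: GAANNTTC stood in 13 of the 52 members and 8.59% of all windows, and TTCNNGAA in 10 of the 52 and 8.77% of all windows. A match describes letters in a window and not binding, and a window without one says nothing about the factor.

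Libraries held 5848458 to 9926088 estimated counts in WTNT and 6610498 to 8117561 in TGNT rats of the genotype table, and 11151973 to 13481985 in TGNT and 9215039 to 14175594 in TGTR rats of the treatment table. App, whose human form the transgene encodes, ranged from 1031 to 1160 RPM in the WTNT group and from 2071 to 2364 RPM in the TGNT group, as the labels say. It was at 2216 to 2757 RPM in all rats of the treatment table. Summed hippocampal markers stood at 959 to 1585 RPM (median 1519 RPM) in WTNT and 982 to 1309 RPM (median 1132 RPM) in TGNT rats, and at 724 to 1210 RPM (median 1096 RPM) in TGNT and 729 to 1289 RPM (median 1027 RPM) in TGTR rats. The choroid plexus list (10 of 10 genes found) summed to 3005 RPM in TGTR rat 5 and 145 RPM in TGTR rat 6, against 4.66 to 19.2 RPM in the other rats of the treatment table, and mural cell genes were also highest in TGTR rat 5, at 295 RPM. Erythroid genes summed to 1751 RPM in TGTR rat 4 and to at most 336 RPM in the others. Values without TGTR rat 5 are given beside the treatment counts of members at an unadjusted p under 0.05 and of members above 0. The interval counts were not recomputed without it. Counts of co-chaperone, endoplasmic reticulum, immediate early and marker genes are given with all rats only. In bulk tissue, fewer cells of a type and less RNA per cell cannot be told apart.

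**Figure D1:**
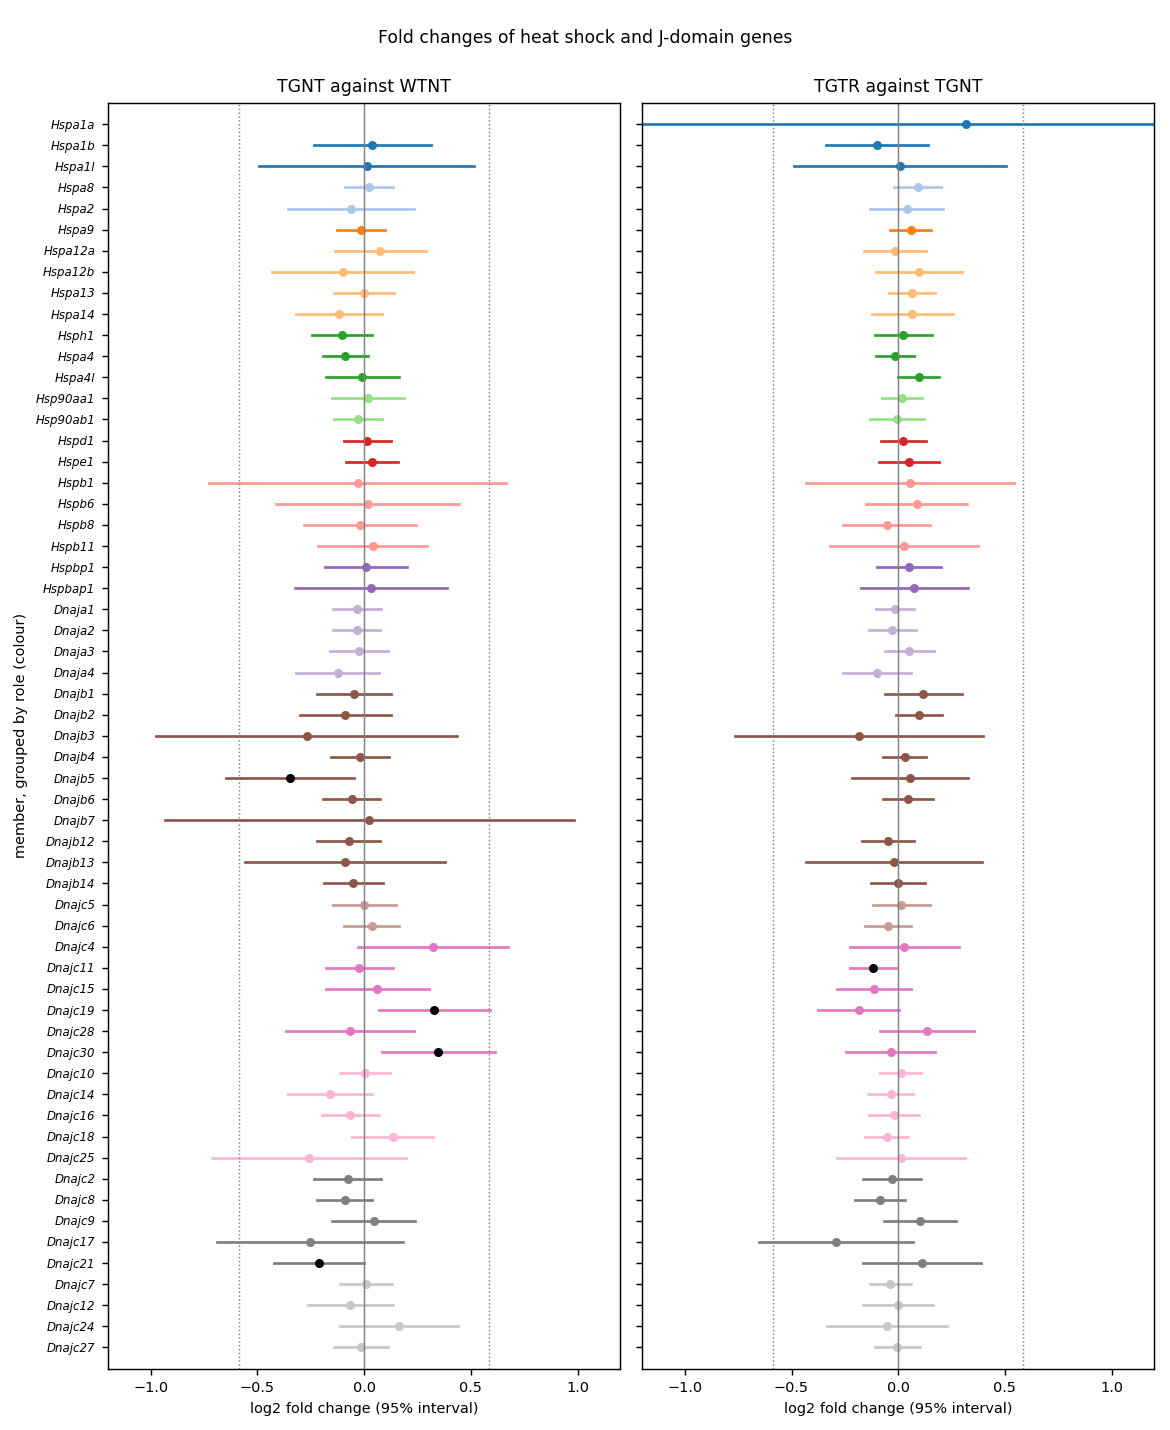
Log2 fold changes from edgeR (points) with 95% intervals (lines) for every member tested, grouped by role in colour, with TGNT against WTNT on the left and TGTR against TGNT on the right. Black points mark an unadjusted p under 0.05 and dotted lines a 1.5-fold change. The 4 black points on the left and 1 on the right are all Dnaj genes, most intervals lie inside the dotted lines, and the Hspa1a interval on the right runs past the axis. Hspa1a was not tested on the left, nor Dnajb7 on the right.

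The first question was whether the chaperone genes differ between transgenic and wild-type hippocampus at 4 months. No member passed the study's thresholds of a 1.5-fold change and an adjusted p under 0.05 (edgeR quasi-likelihood test with Benjamini-Hochberg adjustment over all genes), and every member's adjusted p was 1. Among all 11641 genes with a mean of at least 1 RPM, 2 were called (0.0172%). At an unadjusted p under 0.05 there were 4 members, or 6.9% beside 3.93% of all genes. Of these, 2 were higher in TGNT (2.04% of all genes were) and 2 lower (1.88% of all genes). Those 4 were Dnajc30, Dnajc19, Dnajb5 and Dnajc21, all J-domain genes, and no Hsp symbol was among them. The median log2 fold change was -0.02 over the members and 0.01 over all genes, with 23 members above and 35 below 0, where 52.5% of all genes were above.

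The intervals say how large a difference could have been missed. For 49 of the 58 members the 95% interval of the fold change lay inside 1.5-fold in both directions, as it did for 81.7% of all genes. For 29 members it lay inside 1.2-fold, as it did for 36.6% of all genes. The intervals that reached past 1.5-fold were those of Dnajb3, Dnajb7, Dnajc17, Dnajc25, Dnajc4 and Hspb1 and of Dnajb5, Dnajc19 and Dnajc30.

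The constitutive Hsp70 and the cytosolic Hsp90 genes stood close together in both genotypes. Hspa8, the housekeeping Hsp70 of the cytosol (Hsc70), was at 2223, 2377, 2268, 2134 and 2171 RPM in WTNT rats and at 2123, 2236, 2307, 2317 and 2313 RPM in TGNT rats. The groups overlapped throughout, and the fold change was 1.02 (95% interval 0.939 to 1.10, edgeR p = 0.681, exact permutation p = 0.675). Hsp90ab1, the constitutive cytosolic Hsp90, was at 2057, 2014, 1853, 1971 and 2008 RPM in WTNT and 1991, 2048, 1903, 1870 and 1849 RPM in TGNT rats. Its fold change was 0.98 (0.906 to 1.06), and that of Hsp90aa1, the inducible cytosolic Hsp90, was 1.01 (0.901 to 1.14). The WTNT rats alone spread from 2582 to 3375 RPM in Hsp90aa1, with 2768 to 3256 RPM in TGNT rats inside that range.

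**Figure D2:**
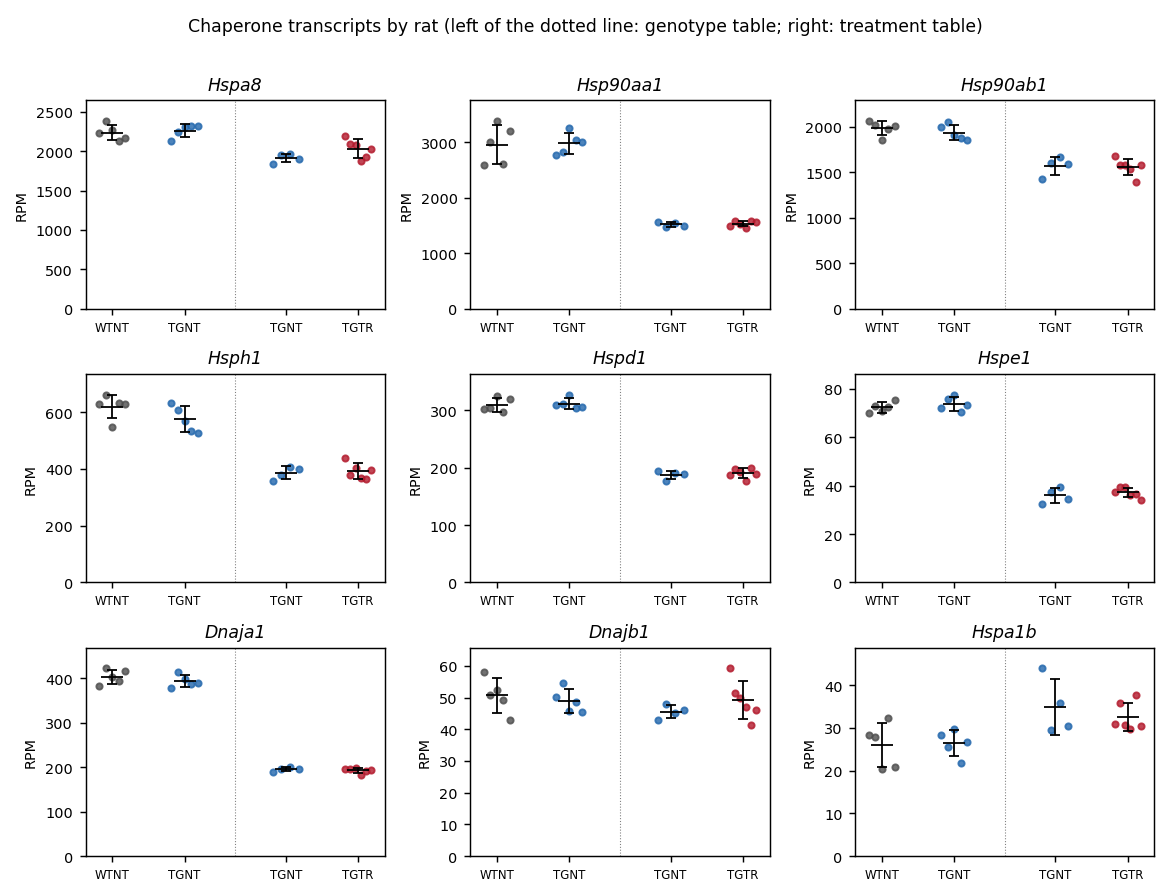
RPM of 9 chaperone genes in each rat (points), with the mean and SD of each group (black). Genotype and treatment tables stand left and right of the dotted line and were scaled separately, and all axes start at 0. In each gene and each table the 2 groups overlap.

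Hspa1a and Hspa1b encode nearly identical inducible Hsp70 proteins, and RSEM divided their reads between them, with fractional counts of Hspa1b in all 10 rats of each table, so their sum is the safer value. The sum was at 28.3, 28.1, 21.0, 32.3 and 22.0 RPM in WTNT and 28.3, 25.5, 30.3, 22.3 and 27.2 RPM in TGNT rats. The means were 26.4 ± 4.72 (SD, n = 5) and 26.7 ± 3.03 (SD, n = 5), and an exact two-sided permutation test gave p = 0.889. Hspd1 and Hspe1, the subunits of the mitochondrial chaperonin, had fold changes of 1.01 (0.937 to 1.09) and 1.02 (0.942 to 1.11). Over the 5 members with a 3-unit heat shock element, log2 fold changes ran from -0.10 to 0.04 with 0 at an unadjusted p under 0.05, and the 95% intervals ran from 0.843-fold to 1.11-fold.

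**Figure D3:**
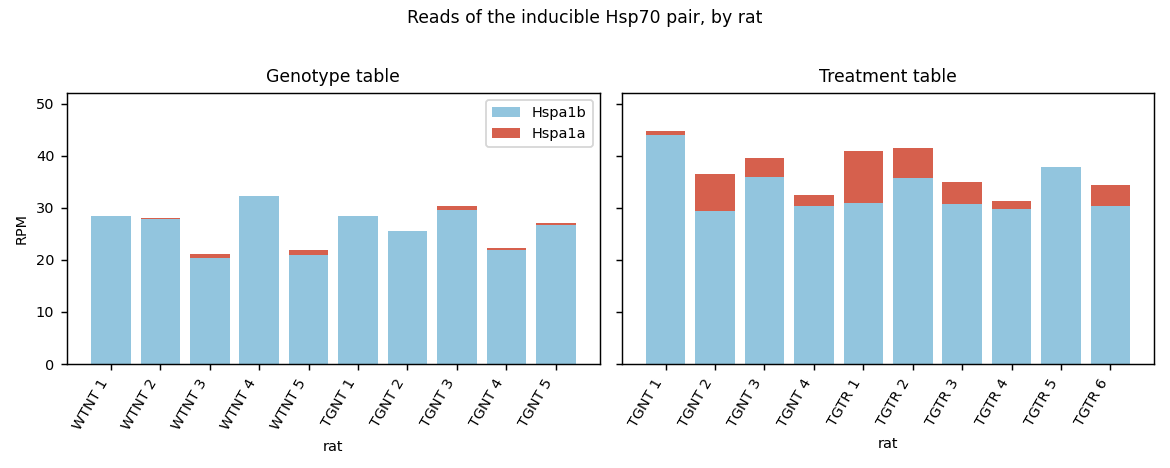
RPM assigned to Hspa1b (blue) and Hspa1a (red), stacked by rat, in both tables. The height of the bar, which does not depend on how reads were divided, runs from 21.0 to 32.3 RPM in the genotype table and from 31.2 to 44.8 RPM in the treatment table, and the red share varies from rat to rat within groups.

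The Hsp110 genes, the nucleotide exchange factors of Hsp70, had lower estimates in TGNT rats, and none of the 3 passed the edgeR test. Hspa4 was at 527, 531, 520, 520 and 536 RPM in WTNT rats and at 506, 481, 517, 483 and 483 RPM in TGNT rats. It was the single member whose groups did not overlap, with every TGNT rat below every WTNT rat, where 0.653% of all genes had separate groups (0.309% lower and 0.344% higher in TGNT). The fold change was 0.941 (0.876 to 1.01), with an edgeR p above 0.05 before adjustment, while the exact permutation test on RPM gave the smallest p that 5 against 5 rats allow (0.00794, two-sided, unadjusted). Hspa4 also had the smallest spread between rats of all members, a coefficient of variation of 2.51%, so a difference of this size stood out by rat although it was small. Of the 8 other methods and scalings tried, DESeq2 and limma-trend put Hspa4 under an unadjusted p of 0.05, with a log2 fold change of -0.10 and -0.09 beside -0.09 in edgeR. Without TMM scaling the Hspa4 groups overlapped.

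Hsph1, the stress-inducible Hsp110, was at 628, 661, 549, 632 and 629 RPM in WTNT and 633, 608, 569, 534 and 528 RPM in TGNT rats. WTNT rat 3 lay among the TGNT rats, and TGNT rat 1 above most WTNT rats. The fold change was 0.931 (0.843 to 1.03), with an edgeR p of 0.14 and an exact permutation p of 0.135. Without WTNT rat 3 the log2 fold change was -0.16 in place of -0.10 and the unadjusted edgeR p was under 0.05. Hspa4l, the third Hsp110, had a log2 fold change of -0.01, which turned above 0 without TMM scaling.

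The J-domain genes of the mitochondrion held the 2 lowest p-values among the members. Dnajc30, whose protein sits at the inner membrane with the respiratory machinery, was at 8.12, 10.7, 10.9, 11.9 and 10.2 RPM in WTNT and 11.7, 12.7, 15.3, 12.5 and 13.6 RPM in TGNT rats. WTNT rat 4 overlapped TGNT rat 1, and the other rats were apart. The log2 fold change was 0.35 ± 0.12 (SE), a fold of 1.27 (1.06 to 1.53), with an edgeR p of 0.0135, an exact permutation p of 0.0159 (both unadjusted) and an edgeR adjusted p of 1, and every edgeR fit without 1 rat kept the unadjusted p under 0.05.

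Dnajc19 encodes a J-domain protein of the inner membrane that is homologous to a subunit of the protein import motor. It was at 8.78, 8.90, 9.76, 10.1 and 8.76 RPM in WTNT and 11.9, 10.3, 9.63, 12.7 and 13.3 RPM in TGNT rats. TGNT rat 3 lay inside the WTNT range and the other TGNT rats above it. The log2 fold change was 0.33 ± 0.12 (SE), with an edgeR p of 0.0169, an exact permutation p of 0.0238 (both unadjusted) and an edgeR adjusted p of 1. Without TGNT rat 5 the log2 fold change was 0.26 and the unadjusted edgeR p was above 0.05. Its counts were fractional in all 10 rats, 53.4 to 107 per rat, so some of its reads were shared with other transcripts.

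Of the other mitochondrial J-domain genes, Dnajc4 had a log2 fold change of 0.32 (interval 0.982-fold to 1.59-fold) and Dnajc15, a relative of Dnajc19, 0.06. Dnajc28 and Dnajc11 had -0.06 and -0.02. Dnaja3, which is also mitochondrial, was counted with class A and had -0.025. Over the 6 mitochondrial Dnajc genes the median was 0.19, with 4 above 0 under every normalization tried. Without WTNT rat 5 the median was 0.12 with 6 of 6 above 0, and without TGNT rat 5 it was 0.13. Hspa9, the mitochondrial Hsp70 (mortalin) that such proteins serve, averaged 293 ± 11.9 RPM (SD, n = 5) among WTNT rats against 289 ± 11.02 RPM (SD, n = 5) among TGNT rats, with a fold change of 0.989 (0.915 to 1.07).

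**Figure D4:**
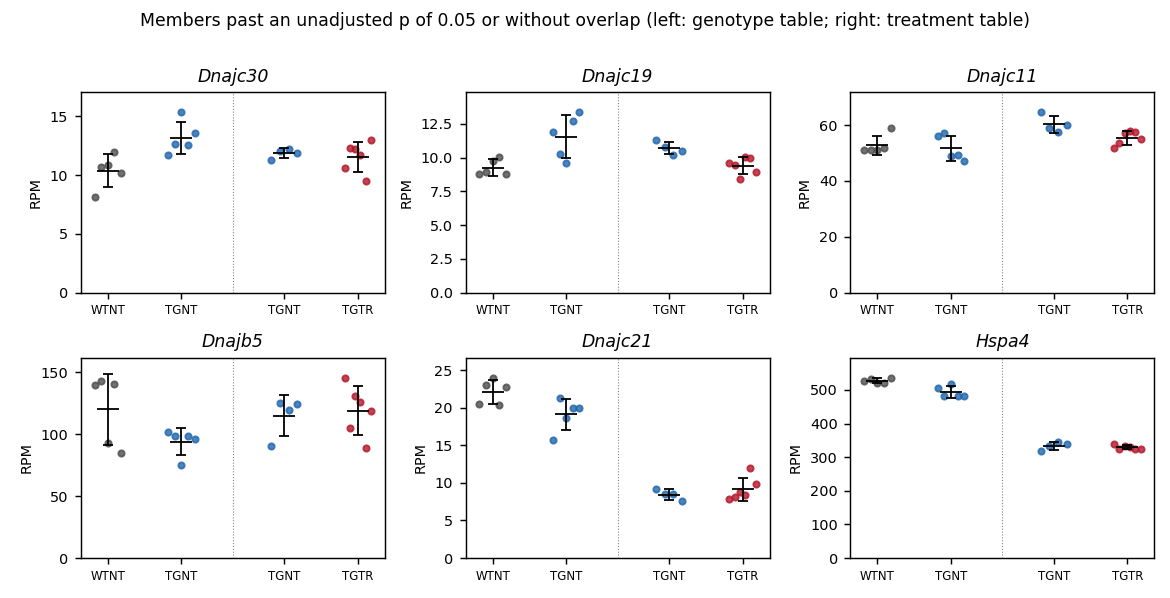
RPM by rat (points) with the mean and SD of each group (black) for the 5 members at an unadjusted p under 0.05 in a table and for Hspa4, whose groups did not overlap in the genotype table. Tables stand left and right of the dotted line and axes start at 0. Dnajc30 and Dnajc19 are higher and Dnajb5 and Dnajc21 lower on average in TGNT than in WTNT rats, and no adjusted p was under 0.05.

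The class A and class B J-domain genes lay mostly below 0. Both classes are defined by domain layout and not by place: most of their proteins work with cytosolic Hsp70, but Dnaja3 is mitochondrial, and Dnajb12 and Dnajb14 sit in the membrane of the endoplasmic reticulum. All 4 class A genes (Dnaja1 to Dnaja4) and 9 of 10 class B genes had log2 fold changes below 0, counts that stayed at 4 and at least 9 under each normalization, and the medians were -0.03 and -0.06. Without a rat the class A median ran from -0.05 (without WTNT rat 4) to -0.02 (without WTNT rat 2) and the class B median from -0.10 (without TGNT rat 2) to -0.05 (without WTNT rat 1), and 8 of 10 class B genes were below 0 without WTNT rat 4. Marker genes of cell types and regions were also below 0 in TGNT rats, 7 of 7 for oligodendrocytes (2 at an unadjusted p under 0.05), 5 of 5 tested for the hippocampus and 4 of 5 for neurons, while 7 of 7 for microglia were above 0, and their part in these counts was not tested. Dnajb5, a class B member, was at 140, 143, 92.6, 140 and 84.4 RPM in WTNT rats and 102, 98.5, 74.8, 98.6 and 96.1 RPM in TGNT rats. WTNT rats 1, 2 and 4 lay above every TGNT rat, and WTNT rats 3 and 5 lay inside the TGNT range. The log2 fold change was -0.35 ± 0.14 (SE), with an edgeR p of 0.026, an exact permutation p of 0.119 (both unadjusted) and an edgeR adjusted p of 1. The unadjusted p was above 0.05 without WTNT rat 1, 2 or 4 or without TGNT rat 3, with log2 fold changes from -0.29 to -0.27, and in limma-trend.

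The immediate early genes, which neurons switch on with activity, also had a lower median sum in TGNT rats, with overlapping groups. Their list of 11 genes summed to 333, 323, 287, 310 and 221 RPM in WTNT rats and 261, 249, 195, 206 and 238 RPM in TGNT rats. WTNT rat 5 lay inside the TGNT range of the list. WTNT rat 5 and TGNT rat 3 were the lowest of their groups in both the list and Dnajb5. TGNT rat 4, the next lowest of its group in the list, lay above TGNT rats 3 and 5 in Dnajb5. Of the 11 genes, 5 were lower and 1 higher in TGNT at an unadjusted p under 0.05, and their part in the Dnajb5 difference was not tested.

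Among the other J-domain genes, Dnajb1, the main stress-inducible partner of Hsp70 in disaggregation, averaged 50.7 ± 5.42 RPM (SD, n = 5) among WTNT rats against 48.9 ± 3.80 RPM (SD, n = 5) among TGNT rats, a fold of 0.968 (0.857 to 1.09). Dnajb6, which is known to hold back the aggregation of polyglutamine and amyloid proteins, had a fold of 0.961 (0.876 to 1.05). Dnajc21, a nucleolar factor of ribosome assembly, was at 20.5, 23.0, 24.0, 20.3 and 22.8 RPM in WTNT and 15.7, 21.3, 18.6, 19.9 and 19.9 RPM in TGNT rats, with TGNT rat 2 inside the WTNT range and the other TGNT rats below it. Its log2 fold change was -0.21 ± 0.10 (SE), with an edgeR p of 0.0494, an exact permutation p of 0.0397 (both unadjusted) and an edgeR adjusted p of 1. The unadjusted p was above 0.05 without WTNT rat 2, 3 or 5 or without TGNT rat 1 or 3, with log2 fold changes from -0.21 to -0.15. Dnajc5, the cysteine string protein of synaptic vesicles, and Dnajc6, the auxilin that uncoats clathrin vesicles, had folds of 1.00 (0.903 to 1.11) and 1.03 (0.938 to 1.12).

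Of the 8 members grouped as small heat shock proteins by an Hspb symbol, 4 passed the filter. Hspb1 (Hsp27) spanned 1.39 to 2.49 RPM among WTNT rats and 0.667 to 3.02 RPM among TGNT rats, from 5 to 20 counts per rat, and its fold of 0.98 carried an interval from 0.604 to 1.59, which includes a 1.5-fold difference in either direction. Hspb6 and Hspb8 had folds of 1.01 (0.752 to 1.36) and 0.986 (0.822 to 1.18). Hspb11, which the symbol groups here, is an intraflagellar transport subunit and had a fold of 1.03 (0.862 to 1.23).

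The remaining named members stood close to 1-fold. Hspa2, an Hsp70 abundant in testis, had a fold of 0.96 (0.782 to 1.18), and the divergent Hsp70 relatives Hspa12a, Hspa13 and Hspa14 had 1.05 (0.91 to 1.22), 1.00 (0.908 to 1.10) and 0.923 (0.803 to 1.06). Dnaja1, the main class A partner of cytosolic Hsp70, had 0.978 (0.905 to 1.06) and Dnaja4 0.917 (0.801 to 1.05). Dnajb2 had 0.941 (0.812 to 1.09), and without TGNT rat 2, its highest rat at 91.7 RPM, the log2 fold change was -0.21 in place of -0.09 and the unadjusted edgeR p was under 0.05. In the endoplasmic reticulum, Dnajc14 had 0.896 (0.782 to 1.03) and Dnajc18 1.10 (0.963 to 1.25). In the nucleus and cytosol, Dnajc17 had 0.84 (0.621 to 1.14), Dnajc7 1.01 (0.924 to 1.09) and Dnajc24, a factor of diphthamide synthesis, 1.12 (0.925 to 1.36). Hspbp1 and Hspbap1, which the prefix also catches and which bind heat shock proteins, had 1.01 (0.882 to 1.15) and 1.02 (0.8 to 1.31).

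The second question was whether DZ/DIB changed these genes in transgenic rats. No member was called, and 0% of the 11855 genes with a mean of at least 1 RPM were called either. The lowest adjusted p among the members was 0.964 (edgeR quasi-likelihood test), for Dnajc11. That gene was also the only member at an unadjusted p under 0.05 (1.72% of the members beside 6.18% of all genes). It was lower in TGTR, as 2.24% of all genes were, and 0 members were higher, as 3.94% of all genes were. The median log2 fold change was 0.01 over the members and 0.00019 over all genes, with 31 members above and 27 below 0 (50.1% of all genes above). Without TGTR rat 5, the rat with the most choroid plexus transcripts, 35 members were above and 23 below 0, with TGTR rat 6 (145 RPM) kept. In that fit 1 member was higher (Dnajb1, log2 fold change 0.16) and 3 were lower (Dnajc11, Dnajc17 and Dnajc19) at an unadjusted p under 0.05, and 6.61% of all genes passed it.

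Precision was higher in this table. For 55 of 58 members the 95% interval lay inside 1.5-fold (85.1% of all genes), and for 37 inside 1.2-fold (49.4% of all genes). The exceptions at 1.5-fold were Hspa1a, Dnajb3 and Dnajc17. The Hsp symbols lay mostly above 0, at 18 of 23 with a median of 0.05, and the Dnaj symbols mostly below, with 13 of 35 above and a median of -0.02, but without TMM scaling 21 of 23 and 24 of 35 were above 0, and the Dnaj median turned to 0.02. Without TGTR rat 5, 18 of 23 Hsp and 17 of 35 Dnaj symbols were above 0, with medians of 0.04 and -0.00035. The Hsp median was 0.03 without TGNT rat 1 or TGTR rat 6 and with the replicate block (16 of 23 above 0 in each), and 0.02 without TGTR rat 1 (15 of 23). The Dnaj median ran from -0.03 to -0.01 without TGNT rat 1, TGTR rat 2 or TGTR rat 3 and with the block. In TGTR rats all 7 endothelial markers were above 0 (3 at an unadjusted p under 0.05). So were all 6 mural cell (2), 7 oligodendrocyte (0), 10 choroid plexus (6) and 6 erythroid markers (0). Over all genes, 50.1% were above 0 and 3.94% were higher at an unadjusted p under 0.05. Above 0 were only 0 of 5 neuronal, 0 of 6 astrocyte, 1 of 5 tested hippocampal and 2 of 7 microglial markers. The part of these marker genes in the counts of members was not tested.

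Hspa8 was at 1837, 1948, 1958 and 1905 RPM in TGNT rats and at 1880 to 2194 RPM with a median of 2053 RPM in TGTR rats. TGTR rats 4 and 5 lay in the TGNT range and the other TGTR rats above it. The fold change was 1.06 (0.986 to 1.15), with an edgeR p of 0.0996 and an exact permutation p of 0.0952. Without TMM scaling the log2 fold change was 0.13 with an unadjusted edgeR p under 0.05, where the median of all genes was 0.04. Hspa4l, an Hsp110 gene, was at 162, 150, 154 and 154 RPM in TGNT and at 157 to 171 RPM with a median of 165 RPM in TGTR rats. Its fold of 1.07 (1.00 to 1.14) had an edgeR p of 0.0506 and an exact permutation p of 0.0286, unadjusted, and TGNT rat 1 stood among the TGTR rats.

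Other heat shock genes of the cytosol and mitochondrion differed by little. Folds were 1.01 (0.949 to 1.08) for Hsp90aa1, 0.995 (0.911 to 1.09) for Hsp90ab1 and 1.02 (0.927 to 1.11) for Hsph1. They were 0.989 (0.929 to 1.05) for Hspa4, 1.02 (0.946 to 1.09) for Hspd1 and 1.04 (0.939 to 1.14) for Hspe1. The summed Hspa1a and Hspa1b reads stood at 44.8, 36.5, 39.6 and 32.4 RPM in TGNT rats and at 31.2 to 41.5 RPM, with a median of 36.4 RPM, in TGTR rats. The means were 38.3 ± 5.22 (SD, n = 4) and 36.8 ± 3.98 (SD, n = 6), with an exact two-sided permutation p of 0.595. Hspa1a by itself ran from 0 to 9.99 RPM, between 0% and 24.5% of the sum, and its 95% interval from 0.434-fold to 3.57-fold shows how little the divided reads can say. Over the 5 members with a 3-unit heat shock element, log2 fold changes ran from -0.02 to 0.09 with intervals from 0.927-fold to 1.15-fold.

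Dnajc11, which takes part in shaping the cristae of mitochondria, was at 64.5, 59.1, 57.4 and 60.1 RPM in TGNT rats and at 51.9 to 57.8 RPM with a median of 56.1 RPM in TGTR rats. TGNT rat 3 stood just under the 2 highest TGTR rats, and the other TGNT rats lay above all TGTR rats. The log2 fold change was -0.12 ± 0.05 (SE), a fold of 0.921 (0.856 to 0.992), with an edgeR p of 0.0328, an adjusted p of 0.964 and an exact permutation p of 0.0286. The unadjusted p was above 0.05 without TGNT rat 1, TGNT rat 4, TGTR rat 1 or TGTR rat 2, and the log2 fold change was -0.08 without TGNT rat 1.

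Dnajc19 was the single member without overlap in this table, where 1.44% of all genes had separate groups (0.633% lower and 0.81% higher in TGTR). It was at 11.3, 10.8, 10.2 and 10.5 RPM in TGNT rats and at 8.40 to 10.0 RPM with a median of 9.51 RPM in TGTR rats, so every TGTR rat lay below every TGNT rat. The fold was 0.879 (0.772 to 1.00), with an edgeR p of 0.0523, an adjusted p of 0.99 and an exact permutation p of 0.00952. The groups overlapped without TMM scaling. Dnaja3, counted with class A, had a log2 fold change of 0.05. For the mitochondrial Dnajc genes as a group, 4 of 6 had estimates below 0 with a median of -0.07, and without TMM scaling 3 of 6. Without TGTR rat 5 there were also 4 of 6, with a median of -0.06. Dnajc30 averaged 11.9 ± 0.411 RPM (SD, n = 4) without and 11.6 ± 1.28 RPM (SD, n = 6) with DZ/DIB, a fold of 0.976 (0.844 to 1.13).

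Dnajb5 had a fold of 1.04 (0.861 to 1.25) under DZ/DIB. TGNT rat 1 was at 90.4 RPM and TGTR rat 5 at 88.8 RPM, and the other rats at 104 to 145 RPM. The immediate early list summed to 196, 269, 210 and 273 RPM in TGNT rats and to 258 to 403 RPM in TGTR rats. Of its 11 genes, 7 were higher at an unadjusted p under 0.05, beside 3.94% of all genes. TGNT rat 1 was the lowest of its group in both the list and Dnajb5, while among TGTR rats the lowest Dnajb5 was in rat 5 and the lowest list sum in rat 4 (258 RPM, with rat 5 at 261 RPM). Dnajb1 had a fold of 1.09 (0.958 to 1.23) and Dnajb2, a neuronal class B member, 1.07 (0.993 to 1.15). Dnajc17, a nuclear factor linked to splicing, had the lowest estimate of all members, a log2 fold change of -0.29 ± 0.17 (SE, exact permutation p = 0.124).

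Among the other named members under DZ/DIB, Hspa9 had a fold of 1.04 (0.974 to 1.11), Hspa2 1.03 (0.913 to 1.16) and Hspa12a 0.989 (0.895 to 1.09). Hspa13 and Hspa14 had 1.04 (0.97 to 1.13) and 1.05 (0.919 to 1.19). Among the Hspb symbols, Hspb1, Hspb6, Hspb8 and Hspb11 had 1.04 (0.741 to 1.46), 1.06 (0.899 to 1.25), 0.963 (0.837 to 1.11) and 1.02 (0.801 to 1.30). Without TGTR rat 5 the log2 fold change of Hspb1 was -0.09 in place of 0.06. Dnaja1 and Dnaja4 had 0.988 (0.929 to 1.05) and 0.933 (0.836 to 1.04), and Dnajb6 1.03 (0.953 to 1.12). For the vesicle genes Dnajc5 and Dnajc6 the folds were 1.01 (0.92 to 1.11) and 0.967 (0.897 to 1.04). Dnajc14, Dnajc18, Dnajc7 and Dnajc24 had 0.976 (0.908 to 1.05), 0.963 (0.898 to 1.03), 0.975 (0.912 to 1.04) and 0.964 (0.794 to 1.17). Hspbp1 and Hspbap1 had 1.04 (0.935 to 1.15) and 1.05 (0.885 to 1.25). None of these had an unadjusted p under 0.05.

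Set side by side, 26 of the 57 members tested in both tables had estimates of opposite sign (45.6%, beside 48.9% of all genes). Dnajc19 was higher in TGNT than WTNT rats (0.33 on the log2 scale) and lower in TGTR than TGNT rats (-0.19), each in its own rats. Dnajc30 had 0.35 and -0.04, Dnajc21 -0.21 and 0.11, and Dnajb5 -0.35 and 0.06. Dnajc11 had -0.02 and -0.12, and Hspa4 -0.09 and -0.02. The tables share no libraries, and no member had an adjusted p under 0.05 in either.

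The members varied little from rat to rat. The median coefficient of variation within groups was 8.48% over the members and 12.04% over all genes in the genotype table, and 6.81% and 9.29% in the treatment table. It was under 10% for 33 of 58 members (38.8% of all genes) and for 41 of 58 (54.1% of all genes). The extremes were Hspa4 at 2.51% and Dnajb7 at 61.1% in the genotype table, and Dnaja1 at 2.48% and Hspa1a at 82.6% in the treatment table. The coefficient depends on read number, which was not matched between members and other genes.

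Covariation across rats was examined for Hsph1 and 13 partners, 10 of them known heat shock response genes or their constitutive forms, after group means were removed from log2(RPM + 1). Over 26 relations (13 in each table, 10 rats each, permutations within groups), 0 passed an adjusted p under 0.05, with 1 and 5 at an unadjusted p under 0.05. Among all genes with the same filter some reached a similar r with Hsph1. In the treatment table the r of Hspa1a was reached by 7.25%, that of Dnajb1 by 5.47%, that of Hspa8 by 1.16% and that of Hsp90ab1 by 0.801%, and 4.56% had an r as low as that of Hspa12a. The r of Dnajc5 was reached by 7.63% and 8.33% of all genes in the 2 tables, and that of Hsp90ab1 in the genotype table by 0.369%. The r was positive for 7 and negative for 6 partners in the genotype table, and for 9 and 4 in the treatment table. Negative in both were Hspa12a, Hspd1 (-0.26 and -0.09) and the inducible Hsp90aa1. For Hsp90aa1, r was -0.55 and -0.22 (permutation p = 0.107 and 0.567, adjusted 0.278 and 0.68). Hsp90ab1 had the highest correlation in both tables. Its Pearson r was 0.89 (permutation p = 0.00726, adjusted 0.0629; Spearman rho 0.81, permutation p = 0.0176, adjusted 0.213) in the genotype table. In the treatment table r was 0.84 (permutation p = 0.00327, adjusted 0.0629) and rho 0.76 (permutation p = 0.0245, adjusted 0.213). There TGNT rat 1 and TGTR rat 5 lay lowest in both genes (Hsph1 -0.11 and -0.10, Hsp90ab1 -0.14 and -0.15 from the group means). Both also had the lowest neuronal marker sums of the treatment table, 4953 and 4568 RPM. TGTR rat 5 is the rat with 3005 RPM of choroid plexus transcripts, and the part of tissue content in the relation was not tested. Farthest from the median of Hsph1 were WTNT rat 3 and TGNT rat 5 in the genotype table and TGNT rat 1 and TGTR rat 1 in the treatment table. Without these 2 rats r was 0.74 (permutation p = 0.182) and 0.66 (permutation p = 0.076). Leaving them out narrows the range of Hsph1 and keeps 8 rats, so a lower r, here and below, cannot show what a relation rests on. Without any 1 rat, r of Hsp90ab1 ran from 0.82 to 0.93 and from 0.79 to 0.88.

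Hspa8 did not keep a sign. Its r with Hsph1 was -0.42 (permutation p = 0.266, adjusted 0.432; rho -0.44, permutation p = 0.234, adjusted 0.45) in the genotype table. It was 0.83 (permutation p = 0.00612, adjusted 0.0629; rho 0.68, permutation p = 0.036, adjusted 0.223) in the treatment table, and 0.61 (permutation p = 0.189) without the 2 farthest rats. The inducible Dnajb1 had an r of 0.21 (permutation p = 0.567, adjusted 0.68; rho 0.20, permutation p = 0.598, adjusted 0.676) and 0.72 (permutation p = 0.0315, adjusted 0.164; rho 0.54, permutation p = 0.116, adjusted 0.379), the latter falling to 0.30 (permutation p = 0.569) without the 2 farthest rats. Hspa1a, below the filter in the genotype table, had an r of -0.53 and 0.70 (permutation p = 0.125 and 0.0424, adjusted 0.282 and 0.184). Hspa1b had the opposite signs, 0.53 and -0.49 (permutation p = 0.13 and 0.165, adjusted 0.282 and 0.307). Reads were divided between these copies, and no r is given for their sum. For Hspa12a, r was -0.20 and -0.71 (permutation p = 0.64 and 0.0291, adjusted 0.723 and 0.164). Dnajc5, a partner not known as stress-inducible, had 0.67 in both tables (permutation p = 0.0678 and 0.0503, adjusted 0.197 and 0.187; rho 0.70 and 0.41, permutation p = 0.0515 and 0.25, adjusted 0.223 and 0.45). Its r without the 2 farthest rats was 0.50 and 0.59 (permutation p = 0.348 and 0.185).

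**Figure D5:**
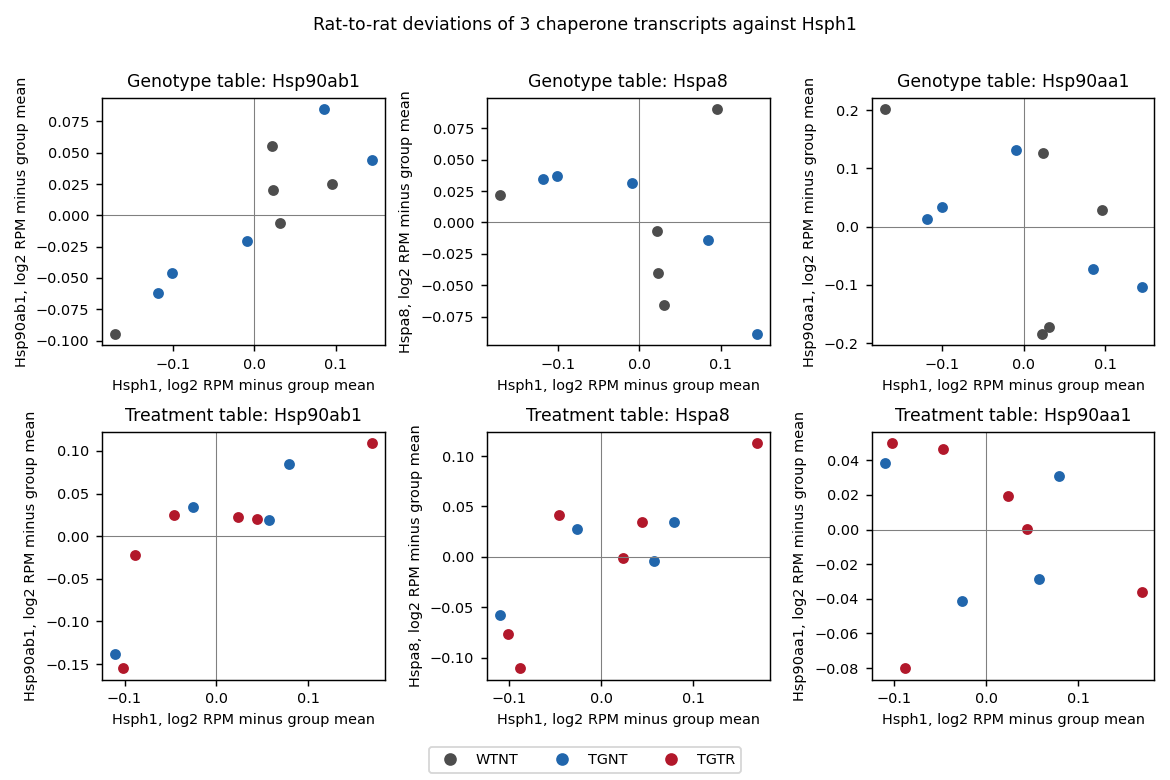
Deviation of each rat's log2(RPM + 1) from its group mean for Hsp90ab1, Hspa8 and Hsp90aa1 (y axes) against Hsph1 (x axes), one point per rat, genotype table above and treatment table below. Hsp90ab1 is higher in rats with more Hsph1 in both rows (r of 0.89 and 0.84). Hspa8 has an r of -0.42 above and 0.83 below, and Hsp90aa1 of -0.55 above and -0.22 below. None of the relations passed adjustment.

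The list of heat shock factors and their binding proteins had 3 genes tested in the genotype data (Hsf1, Hsf2 and Hsbp1, which encodes a factor-binding protein) and 4 in the treatment data (with Hsf4), of which 0 had an unadjusted p under 0.05. Hsf1 averaged 14.3 ± 2.46 RPM (SD, n = 5) among WTNT rats against 14.02 ± 0.797 RPM (SD, n = 5) among TGNT rats. Among 28 co-chaperones of Hsp90 and Hsp70, Bag5, a nucleotide exchange factor, was lower in TGNT rats at an unadjusted p under 0.05 (72.1 and 64.1 RPM, log2 fold change -0.16, edgeR adjusted p = 1). Over all genes, 1.88% were lower in TGNT at that threshold. In TGTR rats 3 of the 28 were higher at an unadjusted p under 0.05, beside 3.94% of all genes. They were Sugt1 (log2 fold change 0.11) and Fkbp4 (0.14), both partners of Hsp90, and Cacybp (0.15). Their edgeR adjusted p was 0.964, 0.99 and 0.99 in that order. None of the 12 tested genes of the cytosolic chaperonin and prefoldin, of the 12 mitochondrial chaperones and proteases, or of the 4 family members under other symbols had an unadjusted p under 0.05 in either table.

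The 5 endoplasmic reticulum genes that the rule leaves out were also looked at. All 5 had estimates above 0 in TGTR rats, with a median of 0.14, where 50.1% of all genes were above 0. Of the 5, 3 were higher at an unadjusted p under 0.05, beside 3.94% of all genes. Values without TGTR rat 5 are not given for these genes. Dnajb9 (ERdj4), a J-domain protein of the unfolded protein response, had a log2 fold change of 0.28 ± 0.06 (SE, edgeR adjusted p = 0.527). Its groups did not overlap (exact permutation p = 0.00476, the smallest possible), where 0.81% of all genes were separate and higher in TGTR. Dnajc3 (p58IPK) had 0.16 and Hsp90b1 (GRP94) 0.12, both with an edgeR adjusted p of 0.964. Against WTNT, 0 of the 5 had an unadjusted p under 0.05. The difference between these genes and the members was not tested.

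Members below a mean of 1 RPM were listed without a test. In both tables these were Dnajb8, Dnajc22, Dnajc5b, Dnajc5g, Hspb2, Hspb3, Hspb7 and Hspb9, joined by Hspa1a in the genotype table and Dnajb7 in the treatment table. Dnajc5g had 0 counts in every rat, and the others reached at most 7.29 counts in a rat of the genotype table and 14 in the treatment table. Nearest to the limit were Hspa1a at 0.359 RPM and Dnajb7 at 1.21 RPM in the genotype table, and Dnajb7 at 0.684 RPM and Dnajb3 at 1.51 RPM in the treatment table.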

How the data were processed

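The authors deposited, for each of the 2 tables, estimated counts per gene symbol, made with RSEM 1.2.15 and Bowtie2 2.1.0 on rn6 according to the submitters' processing notes, and not normalized. RSEM divides reads that fit several genes, so near-identical copies share counts. The authors also deposited a signal table of RPM scaled by TMM factors. Here the estimated counts were rounded and fitted over all 17168 symbols of each table with edgeR 4.0.16 (R 4.3.3, TMM, quasi-likelihood test, two-sided, Benjamini-Hochberg over all genes), without covariates. Values by rat are the deposited RPM, and exact permutation tests used all 252 or 210 arrangements of the rats. Correlations used 100000 permutations.

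Members, lists, partners and tests were chosen with earlier results of these data known. Named were 20 fixed members, every member at an unadjusted p under 0.05 or without overlap, the member of lowest p in each role and comparison, and up to 3 genes of a pathway list at an unadjusted p under 0.05. On simulated counts with 200 genes changed 2-fold, the quasi-likelihood test over 17168 genes recovered 93% in either design. Smaller changes were not simulated, and members had log2 fold changes from -0.35 to 0.35 (TGNT against WTNT) and -0.29 to 0.32 (TGTR against TGNT). The 93% therefore gives no power for differences of that size or for members with few counts. Each rat is a replicate, and the labels give no batch. Intervals cover the spread between these rats.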

Additional observations from a re-analysis of the deposited data

Results flagged for a closer look

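In groups of 4 to 6 rats, a rat was singled out where its gap to the nearest other rat took more of the group's range than Dixon's critical value allows. Of 198 groups looked at, 10 held such a rat, and chance gives 9.9.

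In the genotype table these were Dnajc11 in WTNT rat 5 (58.8 RPM, the next rat at 51.7 RPM), Hspb11 in WTNT rat 4 (8.19 RPM, the next at 7.36 RPM), Dnajb2 in TGNT rat 2 (91.7 RPM, the next at 69.7 RPM) and Dnajb5 in TGNT rat 3 (74.8 RPM, the next at 96.1 RPM). In the treatment table Dnajb5 in TGNT rat 1 was low (90.4 RPM, the next at 119 RPM).

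TGTR rat 5 was high in Hspa9 (238 RPM, the next at 225 RPM) and Hspb8 (19.7 RPM, the next at 17.0 RPM), and in the same rat the choroid plexus list summed to 3005 RPM and the mural cell list to 295 RPM. Erythroid genes summed to 1751 RPM in TGTR rat 4. The part of these tissues in the values of Hspa9 and Hspb8 was not tested.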

How the results depend on the processing

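The count of members past the study's thresholds was 0 in both comparisons in every fit. Counts at an unadjusted p under 0.05 are small and moved. In TGNT against WTNT the 2 lower members became 1 with the likelihood ratio test, the exact test, library size only and the replicate block, 3 with DESeq2 (Dnajb5, Dnajc21 and Hspa4) and 4 when every symbol with a count was included. Leaving out a rat gave 0 to 3 lower and 1 to 3 higher members. In TGTR against TGNT the 1 lower member became 0 with the likelihood ratio test, the exact test, library size only and the replicate block, and 2 with limma-trend and filterByExpr. The 0 higher members became 1 with DESeq2, limma-trend, filterByExpr and the replicate block, and 3 with library size only. Leaving out a rat gave 0 to 3 lower and 0 to 2 higher members. The median log2 fold change ran from -0.04 to -0.02 without a rat in the first comparison and from -0.0108 (without TGTR rat 1) to 0.0231 (without TGTR rat 5) in the second, where library size only gave 0.0477. Members without overlap numbered 0 in both comparisons in RPM over plain library size, and without a rat 1 to 2 and 1 to 3. Partners of Hsph1 at an adjusted p under 0.05 ran from 0 to 1 (without WTNT rat 2) and from 0 to 2 (1 without TGNT rat 2, 2 without TGTR rat 2). The causes were not tested.

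Same-numbered rats did not deviate together (correlations from -0.20 to 0.33 and from -0.58 to 0.14), so the replicate block pairs only numbers, and no member was called with it. Among estimates of named members over the alternatives, 583 kept their direction and side of an unadjusted 0.05 in the first comparison, 15 were no longer under it, 6 came under it and 62 turned sign with neither value under it. In the second these were 623, 8, 18 and 35. Counts were lowest for Hspb1, Dnajb3, Dnajb7, Hspa1a and Hspa1l, which had at most 140.34 counts in a rat, and read depth and the spread between rats were not separated in their intervals.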
